A study of Mus musculus with 8 samples.

Results

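Histone lysine methylation enzymes are the writers and erasers of methyl marks on histone tails, and the regions described here are those at their genes. The mark measured at them, by chromatin immunoprecipitation and sequencing, was H3K9ac, the acetyl group on lysine 9 of histone H3 that promoters in use carry. Members were all regions of the deposited table whose nearest gene has a name beginning with Kdm, Kmt, Setd, Ehmt, Suv39, Nsd or Ezh, or is Dot1l or Ash1l. This name rule gave 47 of 11251 regions, at 38 of 9757 named genes. No region was named after Ash1l. Nsdhl, a sterol dehydrogenase of cholesterol synthesis, was caught by its first letters alone and is no methylation enzyme. Without it 46 regions at 37 genes remain. Among them are 3 regions at 3 SET-domain genes, Setd3, Setd4 and Setd6, and the main substrates of Setd3 and Setd6 are not histone lysines.

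The study compared histone acetylation between wild-type C57Bl/6 mice given vehicle and mice given 150 mM butyrate for 7 days, in epithelial cells of the terminal ileum. Both groups had 3 H3K9ac libraries (S1, S2 and S3 in vehicle, S4, S5 and S6 in butyrate), while 2 input libraries, made without the antibody step, were not analysed here. The labels name neither the route of butyrate, nor the vehicle, nor the sex or age of the mice, and whether every library stands for a mouse of its own is not stated. The p-values therefore rest on library-to-library spread only, which may be technical in part. In bulk chromatin, a smaller share of cells with the mark and less of the mark in every cell cannot be told apart.

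Methyl groups on lysines 4 and 36 of histone H3 and on lysine 79 accompany transcription, while those on lysines 9 and 27 of H3 and on lysine 20 of histone H4 accompany silencing or compaction. SET-domain enzymes and Dot1l add the groups, and amine oxidases of the Kdm1 type or Jumonji enzymes, which use iron and oxoglutarate, remove them. Butyrate, which gut bacteria release when they ferment fibre, inhibits histone deacetylases and thus acts on acetylation, a mark that several of these enzymes read or work beside.

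Libraries held 1255251 to 1828591 reads in regions, and the median member region held 160 to 240 reads per library. Values are in RPKM, a density: a region's reads divided by its length in kilobases and by a library size that the authors set. After division by that size, the libraries had nearly the same sum over regions (0.994 to 1.007 of their mean). Whether the division had evened out a change shared by all regions cannot be told from these values. A marker counted as measured if a region named after it had a mean of at least 1 RPKM and lay within 5 kb of a start. Epithelial markers were measured at 12 of 12 genes, with a summed level of 63.4 to 67.1 RPKM in vehicle and 59.5 to 65.6 in butyrate. Leukocyte markers were measured at 1 of 12, Laptm5, with 0.987 to 1.37 and 0.970 to 2.09 RPKM, while Ptprc, Cd3e and Cd3g were among those not measured. Stromal and endothelial markers were measured at 1 of 11, Vim, with 0.593 to 1.98 and 0.656 to 1.03 RPKM.

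Most of the enzyme genes carried acetylation at a start site. Of the 47 regions, 43 lay within 5 kb of the nearest start (91.5%, against 90.6% of all regions), and 35 overlapped that start. Distances given for a region run from its midpoint to that start, with upstream negative. Those 35 reached from 95 to 5506 bp upstream of the start (median 758) and from 318 to 3339 bp downstream (median 1768), and 30 of them reached further downstream than upstream. The deposited annotation placed 24 regions by their midpoint in an intron, 21 of them in the first, 10 at a promoter, 6 between genes, 4 in a 5′ UTR, 2 in an exon and 1 at a transcript end. Start sites of protein-coding genes in GENCODE release M21 lay in 36 of the 47 regions (76.6%, against 66.9% of all regions). In 2 regions a second gene started as well, Tpmt beside Kdm1b and Ccnk beside Setd3, which is 4.26% of members against 6.8% of all regions.

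**Figure D1:**
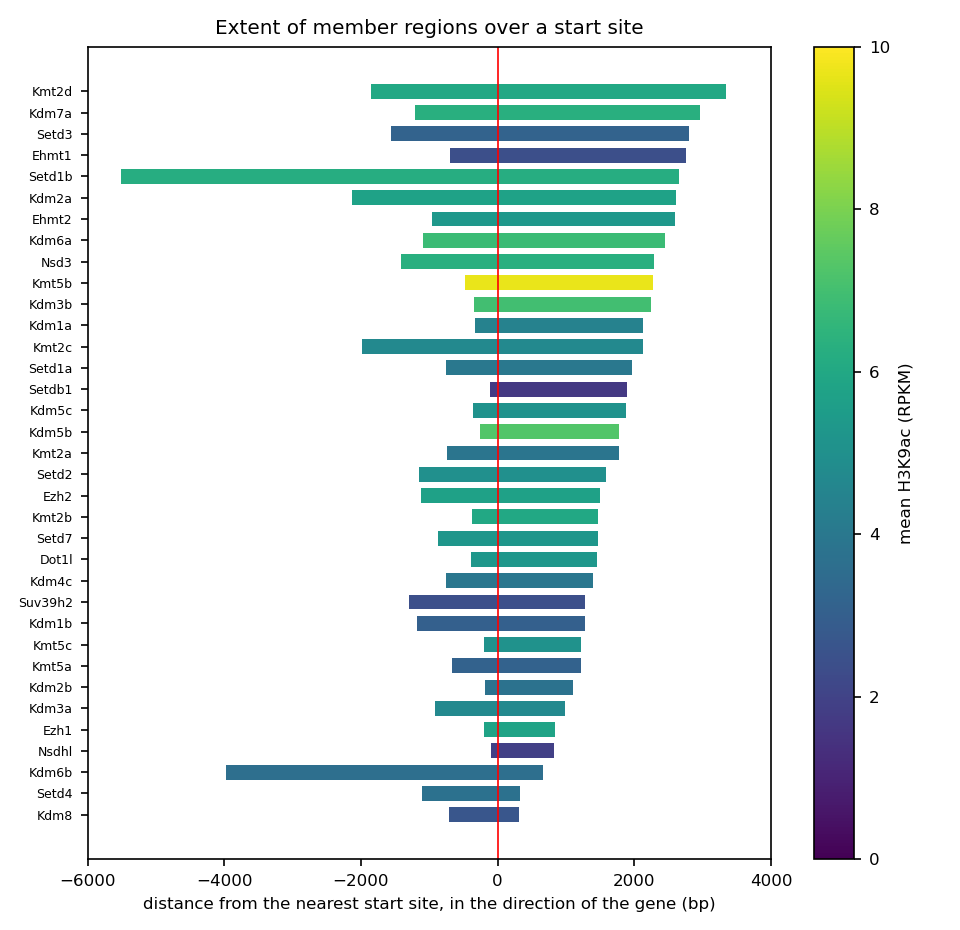
Extent of the 35 member regions that cover the nearest start site, in bp from that start in the direction of the gene, coloured by mean H3K9ac over the 6 libraries in RPKM. Bars extend further to the right of the start than to the left in 30 of 35, and the bar of Setd1b reaches 5506 bp upstream.

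Promoter sequences show what the acetylated starts are made of. RefSeq promoters of 300 bases (GRCm38.p6, the coordinates of mm10, 250 bases before the start and 50 from it) were matched at 29 of the 38 genes, each with its start inside the region. They held a median of 29 CG dinucleotides (13 to 65) and 65.3% G or C, against medians of 24 and 62.7% in the 8492 promoters whose start lay in any region of the table, and 7 and 52.7% in all 32851 promoters. The set of 7 motifs searched on both strands was the GC box GGGCGG, the CCAAT box CCAAT, the ETS core CCGGAAG, the NRF1 core TGCGCA, the CRE TGACGTCA, the E-box CACGTG and the TATA box TATAAA, none of which contains another. A GC box stood in 21 of 29 member promoters (72.4%, against 67.5% of promoters in regions and 35.7% of all) and a CCAAT box in 11 (37.9%, against 34.1% and 37.4%). An NRF1 core stood in 6 (20.7%, against 14.8% and 7.76%), an ETS core in 5 (17.2%, against 21.2% and 8.86%), an E-box in 3 (10.3%, against 10.1% and 7.15%) and a CRE in 1 (3.45%, against 3.72% and 1.79%). A TATA box stood in 0 of 29, against 6.41% and 13.6%.

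The promoters below belong to the member with the densest region, Kmt5b, and to those of the members with separated groups (described further on) that were matched. Capitals mark every match to the motif set, and positions are counted from the start site at 0.
Kmt5b (chr19:3767171-3767470, plus strand): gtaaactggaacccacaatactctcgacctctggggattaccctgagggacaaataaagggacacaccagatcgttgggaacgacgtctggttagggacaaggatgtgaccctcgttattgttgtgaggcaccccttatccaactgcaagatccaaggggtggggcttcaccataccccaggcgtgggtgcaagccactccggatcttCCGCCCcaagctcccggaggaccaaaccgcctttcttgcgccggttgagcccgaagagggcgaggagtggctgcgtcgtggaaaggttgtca
Ezh1 (chr11:101226414-101226713, minus strand): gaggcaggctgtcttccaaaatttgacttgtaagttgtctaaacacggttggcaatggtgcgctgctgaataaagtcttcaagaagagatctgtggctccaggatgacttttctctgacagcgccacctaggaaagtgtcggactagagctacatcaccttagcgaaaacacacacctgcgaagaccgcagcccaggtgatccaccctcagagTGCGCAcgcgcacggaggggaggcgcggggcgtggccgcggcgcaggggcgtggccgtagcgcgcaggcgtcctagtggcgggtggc
Kdm1a (chr4:136602674-136602973, minus strand): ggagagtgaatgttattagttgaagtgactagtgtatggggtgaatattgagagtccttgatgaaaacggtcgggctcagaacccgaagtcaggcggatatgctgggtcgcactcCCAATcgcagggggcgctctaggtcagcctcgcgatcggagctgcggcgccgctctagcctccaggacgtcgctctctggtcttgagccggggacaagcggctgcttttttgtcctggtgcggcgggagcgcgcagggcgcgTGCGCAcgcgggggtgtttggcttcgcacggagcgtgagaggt
Kdm8 (chr7:125444370-125444669, plus strand): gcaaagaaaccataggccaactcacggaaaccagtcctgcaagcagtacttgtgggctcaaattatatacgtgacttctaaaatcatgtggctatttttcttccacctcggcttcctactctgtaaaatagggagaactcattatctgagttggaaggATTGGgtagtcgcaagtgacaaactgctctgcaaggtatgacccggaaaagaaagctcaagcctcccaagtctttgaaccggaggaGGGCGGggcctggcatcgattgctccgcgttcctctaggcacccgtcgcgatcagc
Setd1a (chr7:127777139-127777438, plus strand): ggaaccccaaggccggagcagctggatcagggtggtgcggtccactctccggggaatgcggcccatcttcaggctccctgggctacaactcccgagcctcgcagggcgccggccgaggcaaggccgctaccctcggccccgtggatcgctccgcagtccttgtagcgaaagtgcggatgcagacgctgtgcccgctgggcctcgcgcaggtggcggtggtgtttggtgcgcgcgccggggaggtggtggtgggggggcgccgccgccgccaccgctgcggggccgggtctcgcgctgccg

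The Kmt5b promoter has 16 CG dinucleotides and 57.3% G or C, and its GC box lies on the opposite strand at -42. The Ezh1 promoter has an NRF1 core at -37 among 23 CG dinucleotides. In Kdm1a an NRF1 core stands at 7, just inside the transcript, and a CCAAT box at -135. Kdm8 has 13 CG dinucleotides, the lowest count of the 29 together with Kdm5c, with a GC box at -6 and a CCAAT box on the opposite strand at -92. Setd1a, with 35 CG dinucleotides and 73.7% G or C, held no match to the set, as did Setd7. A match is a string of letters and no evidence of binding.

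In level the member regions spanned 0.675 to 9.66 RPKM, with a median of 4.01 against 3.09 over all regions. They were also longer, with a median of 2244 bp against 1417, and held more reads, with a median of 207 against 97.7 per library. No test was made of these differences. The densest was Kmt5b, at the 99.9th percentile of all regions, followed by Kdm5b (7.27 RPKM), the intragenic region of Kdm6b (7.12), Kdm3b (6.98) and Kdm6a (6.80). The broadest was Setd1b with 8163 bp, at the 99.7th percentile of length, followed by Kmt2d (5194 bp), Kdm2a (4736 bp) and the upstream region of Kdm6b (4643 bp). At the low end, 10 regions that covered no start of their gene had a median of 1.14 RPKM and 500 bp, with Kdm6b (7.12 RPKM) as the exception.

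**Figure D2:**
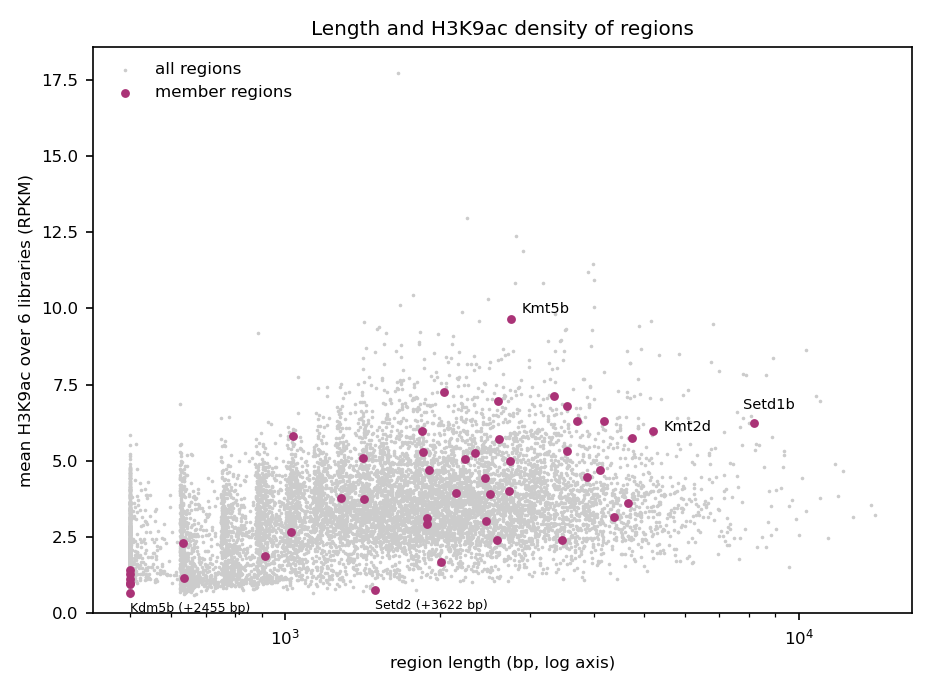
Length in bp (log axis) and mean H3K9ac over the 6 libraries in RPKM of all 11251 regions (grey) and the 47 member regions (purple). Kmt5b is the highest member with 9.66 RPKM and Setd1b the longest with 8163 bp, while the downstream regions of Kdm5b and Setd2 lie under 1 RPKM.

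No difference between butyrate and vehicle at these genes passed the tests made. Of the 47 regions, 43 had a mean of at least 1 RPKM and were tested with limma on log2(RPKM + 1) over the whole table. At an adjusted p of 0.05, 0 of the 43 were called, where 0.0% of the 10529 tested regions were called. An unadjusted p under 0.05 was found at 2 members, Kdm8 and Ezh1, both higher with butyrate, which is 4.65% against 7.27% of all tested regions (3.35% higher, 3.91% lower). Voom on the reads recovered from the RPKM values called 0 of 47 members, where it called 0.142% of all regions, and gave an unadjusted p under 0.05 to 2, Kdm2a and Kdm8 (4.26% against 9.49%). An FDR under 0.1 in the authors' deposited table was found for 0 of 47, against 0.249% of all regions, and the lowest FDR of a member in the authors' deposited table was 0.344, at Kdm8.

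The member regions' median log2 fold change, butyrate over vehicle, was 0.04, against 0.00 over all tested regions, and 27 of 43 lay above 0 (62.8%, against 50.0%). The SD of the fold changes was 0.14 over members and 0.17 over all regions, but members held more reads. Among regions of at least 100 mean reads the SD was 0.107 over 35 members and 0.117 over all 5531. The medians there were 0.033 and -0.002. For 39 of 43 the 95% interval of the fold change lay within 1.5-fold in both directions on this scale (90.7%, against 86.7%). The 4 exceptions were Kdm8 and 3 regions of 11.2 to 15.3 mean reads, at Nsd1, Kmt5a and Setd6. At 5 members the 2 groups of libraries did not overlap (11.6%, against 13.0%). Of these, 4 were higher with butyrate, Kdm8, Ezh1, Kdm2a and Kdm1a (9.30%, against 6.11%), and 1 was lower, Setd1a (2.33%, against 6.85%).

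**Figure D3:**
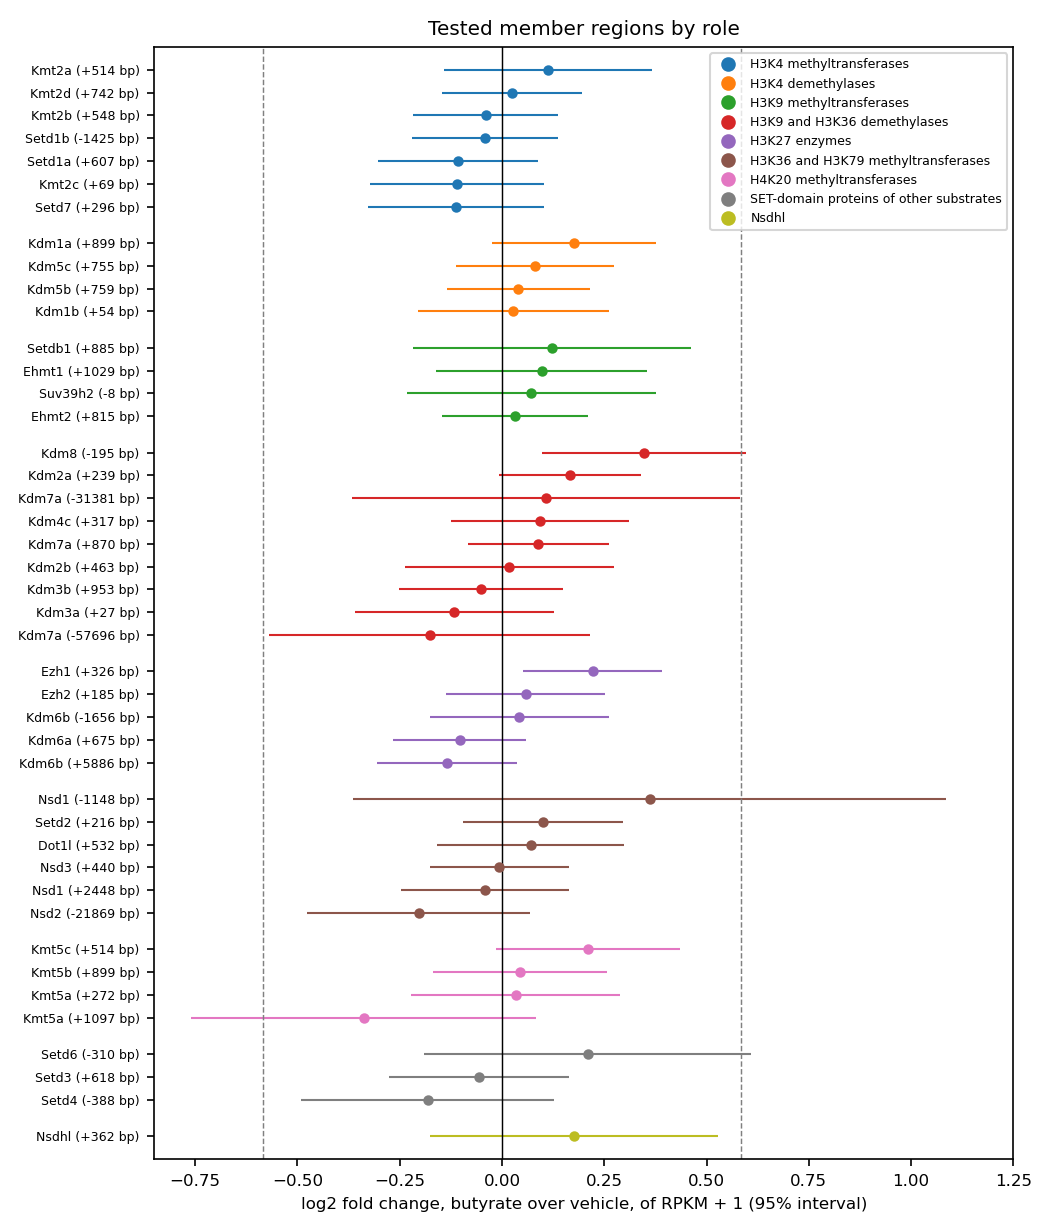
Log2 fold change of butyrate over vehicle, on RPKM + 1, with its 95% interval (limma) for the 43 tested member regions, grouped by the role of the gene and labelled with the distance in bp from the start site. The dashed lines mark 1.5-fold, and the intervals of Kdm8 and Ezh1 alone exclude 0.

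Methylation of H3 lysine 4 is written by the large Kmt2 proteins and by Setd1a and Setd1b, each the core of a COMPASS-type complex. Of the 7 tested regions of this group, 2 lay above and 5 below 0, with a median of -0.04 and fold changes from -0.11 to 0.11. Setd1b (chromosome 5, 123136686 to 123144849, mm10 as in the table) had the most acetylation, 6.18, 6.39 and 6.44 RPKM in the vehicle libraries S1 to S3 and 6.63, 5.44 and 6.36 in the butyrate libraries S4 to S6. Its butyrate libraries lay on both sides of the vehicle ones (log2 fold change -0.04 ± 0.08, SE). Setd1a (chromosome 7, 127776633 to 127779358, first intron and start) had 4.12, 4.17 and 4.30 RPKM in vehicle and 3.69, 3.85 and 3.93 in butyrate. All 3 butyrate libraries were below all vehicle libraries, and the spread within groups was the smallest of the tested members (2.67% of the mean). The fold change was -0.11 ± 0.09 with a limma adjusted p of 0.80.

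Kmt2c, the enzyme of enhancer monomethylation together with Kmt2d, had a vehicle mean of 4.92 ± 0.34 RPKM and a butyrate mean of 4.49 ± 0.55 (SD over 3 libraries, and in this order for every pair that follows). Kmt2d had 5.94 ± 0.47 and 6.05 ± 0.10, the narrower spread lying in butyrate. Kmt2a, of the MLL complex with menin, had 3.73 ± 0.74 and 4.07 ± 0.07, and its vehicle spread came from library S2 at 2.88 RPKM, below S1 (4.22) and S3 (4.09). Kmt2b had 6.09 ± 0.49 and 5.89 ± 0.33. Setd7, which monomethylates H3 and many non-histone proteins, had 5.51 ± 0.50 and 5.03 ± 0.68, or -0.11 ± 0.10 on the log2 scale. These 5 fold changes lay between -0.11 and 0.11.

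All 4 tested regions named after lysine 4 demethylases lay above 0, by 0.03 to 0.18, and none passed (lowest limma adjusted p 0.71). Of all tested regions 50.0% lay above 0. Kdm5a, in a region named after Ccdc77 (described further on), lay below 0 (-0.07 ± 0.09). Kdm1a (LSD1, the flavin-dependent eraser that works in the CoREST corepressor with Hdac1 and Hdac2; chromosome 4, 136600600 to 136603048) had 4.08, 3.94 and 4.31 RPKM in vehicle. In butyrate it had 5.23, 4.72 and 4.39, so that all 3 libraries were above all vehicle ones, S6 by a narrow margin. The fold change was 0.18 ± 0.09 (limma adjusted p 0.71, voom adjusted p 0.55). Its paralogue Kdm1b, at a promoter shared with Tpmt, had 2.98 ± 0.21 and 3.06 ± 0.28. Kdm5b, a Jumonji eraser of trimethylated lysine 4, had 7.48, 7.46 and 6.51 RPKM in vehicle and 7.57, 7.82 and 6.74 in butyrate, 1 library in each group being lower than the rest. The X-linked Kdm5c had 4.88 ± 0.21 and 5.23 ± 0.50.

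The lysine 9 methyltransferases write the residue that is acetylated in this assay, and a lysine cannot carry both groups at once. All 4 of their regions lay above 0, by 0.03 to 0.12, where 50.0% of all tested regions did, and none passed (lowest limma adjusted p 0.87). Ehmt2 (G9a; chromosome 17, 34898012 to 34901557) had 5.67, 5.11 and 4.98 RPKM in vehicle and 5.26, 5.56 and 5.35 in butyrate, the groups overlapping. Its partner in the dimethylating complex, Ehmt1 (GLP), had 2.28 ± 0.19 and 2.51 ± 0.23, the lower density of the pair. Suv39h2, of pericentric heterochromatin, had 2.31 ± 0.33 and 2.49 ± 0.53. Setdb1, which silences endogenous retroviruses with Trim28, was the least dense with 1.56 ± 0.25 and 1.79 ± 0.33.

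The lysine 9 and lysine 36 demethylases held the member with the smallest p, Kdm8. Of their 9 tested regions 6 lay above 0, with a median of 0.09. Kdm8 (chromosome 7, 125443911 to 125444938, promoter and start), a Jumonji oxygenase reported to act on dimethylated lysine 36, had 2.26, 2.18 and 2.21 RPKM in vehicle. The butyrate libraries had 3.20, 2.66 and 3.46, all above vehicle, on 58.2 mean reads. This is a ratio of 1.40 and a log2 fold change of 0.35 ± 0.12 (95% interval 0.10 to 0.60), with a limma p of 0.010 and adjusted p of 0.57. The limma p was 0.054 without S6 and at most 0.034 without any other single library. By voom, whose scale is not damped by the added 1, it was 0.48 ± 0.22 (voom adjusted p 0.45).

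Kdm2a (chromosome 19, 4394470 to 4399206, from upstream of the start into the gene), a CpG-island-binding eraser of dimethylated lysine 36, had 5.65, 5.30 and 5.18 RPKM in vehicle. In butyrate it had 5.75, 6.26 and 6.46, all above vehicle, S4 (5.75) being next to the highest vehicle library. On 578 mean reads the fold change was 0.17 ± 0.08 by limma (adjusted p 0.70) and 0.19 ± 0.08 by voom (adjusted p 0.40). Kdm2b, which brings variant Polycomb complexes to CpG islands, had 3.76 ± 0.63 and 3.81 ± 0.47 at a start within intron 12 of 22 of a longer transcript. Its 0.02 ± 0.12 was the smallest difference of the group.

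Kdm3a, a lysine 9 eraser induced in hypoxia, had 4.91 ± 0.26 and 4.49 ± 0.84, the butyrate spread coming from S5 at 3.55 RPKM. Its paralogue Kdm3b had 7.13 ± 0.99 and 6.83 ± 0.54, with S1 highest at 8.28. Kdm4c, an eraser of trimethylated lysines 9 and 36, had 3.80 ± 0.46 and 4.10 ± 0.17. At the start of Kdm7a, an eraser with a PHD finger that reads trimethylated lysine 4, 6.09 ± 0.38 and 6.54 ± 0.42 RPKM were found, or 0.09 ± 0.08. None of these passed.

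H3 lysine 27 is methylated by Ezh1 and Ezh2 in Polycomb repressive complex 2 (PRC2) and demethylated by Kdm6a (UTX) and Kdm6b. Of the group's 5 regions 3 lay above and 2 below 0. Ezh1 (chromosome 11, 101225618 to 101226656, first intron and start) had 5.11, 5.67 and 5.08 RPKM in vehicle and 6.12, 6.35 and 6.50 in butyrate, with no overlap. Its fold change was 0.22 ± 0.08 (95% interval 0.05 to 0.39), with a limma p of 0.015 and adjusted p of 0.60, and the p ran from 0.010 to 0.048 without single libraries. By voom, with 127 mean reads, the unadjusted p was 0.077. Ezh2, the paralogue of dividing cells, had 5.58 ± 0.65 and 5.83 ± 0.27, or 0.06 ± 0.09, and the difference between the paralogues was not tested.

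Both demethylases of lysine 27 had their densest region below 0. Kdm6a (chromosome X, 18161481 to 18165019) had 6.82, 7.49 and 6.93 RPKM in vehicle and 6.36, 6.28 and 6.94 in butyrate, where only S6 reached the vehicle range (-0.10 ± 0.08, limma adjusted p 0.77, and -0.07 without S2). Kdm6b, which is induced in inflammation, had an intragenic region (chromosome 11, 69408636 to 69411979, intron 2 of 23) with 7.45, 8.23 and 6.83 RPKM in vehicle. In butyrate it had 6.90, 6.45 and 6.84, and its fold change was -0.13 ± 0.08 (limma adjusted p 0.73), or -0.07 without S2. The groups overlapped through S3.

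Among the lysine 36 and lysine 79 methyltransferases 3 of 6 tested regions lay above 0 (median 0.03). Nsd3 (chromosome 8, 25600872 to 25604575), a dimethylating enzyme, had the most acetylation, 6.03, 6.64 and 6.31 RPKM in vehicle and 5.99, 6.09 and 6.81 in butyrate, with a fold change of -0.01 ± 0.08. Nsd2 was measured at a region at -21869 bp (chromosome 5, 33820298 to 33822187) that the table places between genes and that holds a further Nsd2 start in GENCODE. It had 3.06, 3.29 and 3.23 RPKM in vehicle and 2.84, 2.04 and 3.13 in butyrate, S5 being the lowest. The fold change of -0.20 ± 0.13 became -0.07 without S5. Dot1l, the lysine 79 enzyme of elongating chromatin, had 5.13 ± 0.38 and 5.47 ± 0.90. Setd2, the trimethylating enzyme that travels with RNA polymerase, had 4.79 ± 0.24 and 5.21 ± 0.50 at its start.

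The H4 lysine 20 enzymes held the densest member. Kmt5b (Suv420h1; chromosome 19, 3766945 to 3769695) had 10.4, 10.3 and 7.88 RPKM in vehicle and 8.72, 10.7 and 10.03 in butyrate. A single library in each group, S3 and S4, stood under the rest, and the fold change was 0.04 ± 0.10. Kmt5c (Suv420h2; chromosome 7, 4739931 to 4741351) had 4.78, 4.06 and 5.08 RPKM in vehicle and 4.73, 6.13 and 5.72 in butyrate, with S4 inside the vehicle range (0.21 ± 0.10, limma adjusted p 0.70, and 0.13 without S2). Kmt5a, the monomethylating enzyme of the cell cycle, had 3.07 ± 0.48 and 3.16 ± 0.30 at its start.

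The remaining SET-domain members were Setd3, an actin histidine methyltransferase, Setd6, which acts on the NF-kB subunit RelA, and Setd4. Histone lysines are not the main substrates of Setd3 and Setd6, and Setd4 was grouped with them without a substrate named here. Setd3 (chromosome 12, 108176438 to 108180808), in a promoter shared with the cyclin gene Ccnk, had 3.09, 3.32 and 3.30 RPKM in vehicle and 3.29, 2.99 and 2.95 in butyrate (-0.06 ± 0.10). Setd4 had 4.07 ± 1.05 and 3.42 ± 0.54, with vehicle S2 highest at 5.15 RPKM (-0.18 ± 0.14). Setd6 rested on 15.3 mean reads, with 1.27 ± 0.47 and 1.60 ± 0.19. Nsdhl, outside the enzymes, had 1.73 ± 0.58 and 2.05 ± 0.20. None passed.

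**Figure D4:**
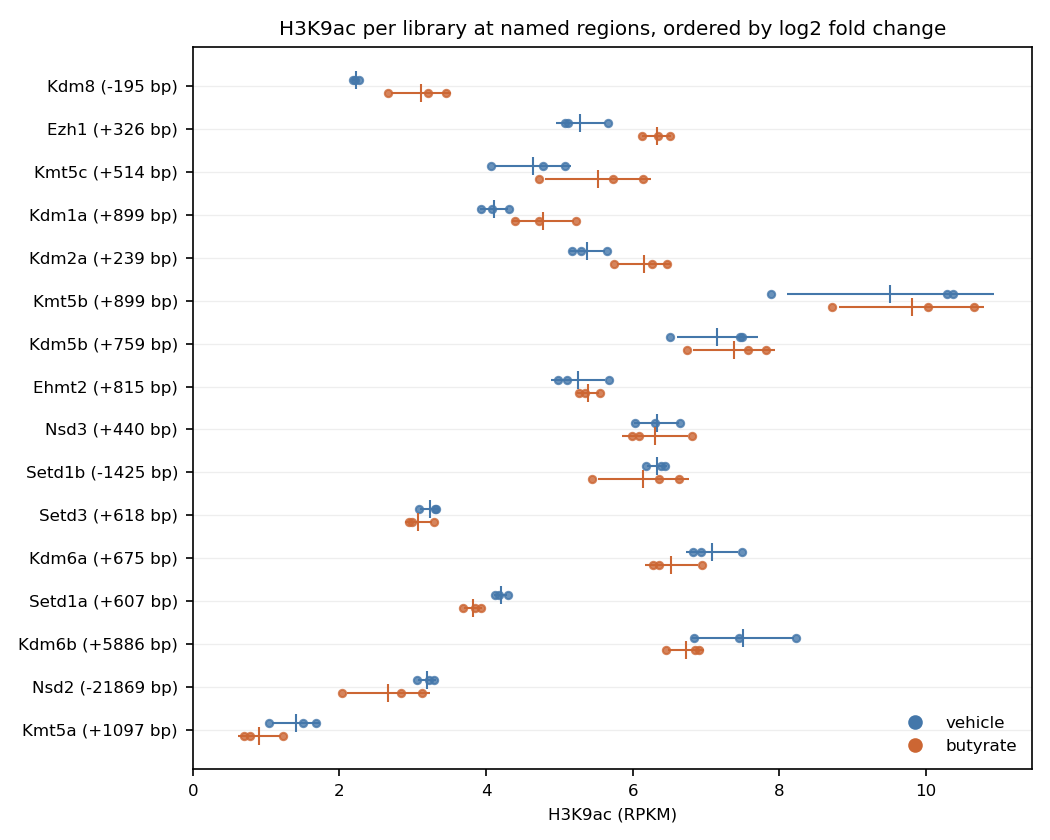
H3K9ac in RPKM per library (points) at the regions with all 6 values in the text, with group mean (tick) and SD (bar), vehicle in blue and butyrate in orange, ordered by fold change. Groups are separated at Kdm8, Ezh1, Kdm1a and Kdm2a, where butyrate is higher, and at Setd1a, where it is lower.

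A set of 7 genes had more than 1 region, 5 with 2 and 2 with 3. In all but Kdm6b the region at a start held most of the acetylation, 92.3% to 97.8% at Kdm5b, Kdm7a, Nsd1, Setd1a and Setd2 and 82.7% at Kmt5a (RPKM times length, summed over the gene's regions). Kdm6b was divided, with 58.6% in the intragenic region and 41.4% in the region over the start named in the table. That second region had 3.21, 3.63 and 3.80 RPKM in vehicle and 3.41, 3.94 and 3.69 in butyrate, or 0.04 ± 0.10 against -0.13 ± 0.08 for the intragenic one. Both intervals include 0, and their difference was not tested.

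The minor regions were thinly covered. At Kdm5b the region at 2455 bp had 1.86 RPKM in vehicle S1 and 0.448 and 0.580 in S2 and S3, while butyrate had 0.451, 0.447 and 0.266, S1 alone standing apart. The region upstream of Nsd1, at -1148 bp, had 0.155, 1.23 and 1.06 RPKM in vehicle and 2.07, 1.90 and 0.266 in butyrate, the ranges overlapping. Its fold change, 0.36 ± 0.34 on 11.2 mean reads, was the highest of the tested members (limma adjusted p 0.83). At Kmt5a the intragenic region at 1097 bp (chromosome 5, 124447483 to 124448118) had 1.04, 1.50 and 1.68 in vehicle and 0.781, 1.23 and 0.700 in butyrate. It had the lowest tested fold change of the members, -0.34 ± 0.20 on 15.2 mean reads (limma adjusted p 0.73). The regions of Kdm7a at -57696 and -31381 bp had 2.54 ± 0.85 against 2.11 ± 0.57 and 1.19 ± 0.39 against 1.38 ± 0.66. A total of 4 members fell under the filter of 1 RPKM, the minor regions of Kdm5b, Setd1a (-1784 bp), Setd2 (3622 bp) and Kmt5a (-513 bp), on 7.67 to 24.2 mean reads.

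**Figure D5:**
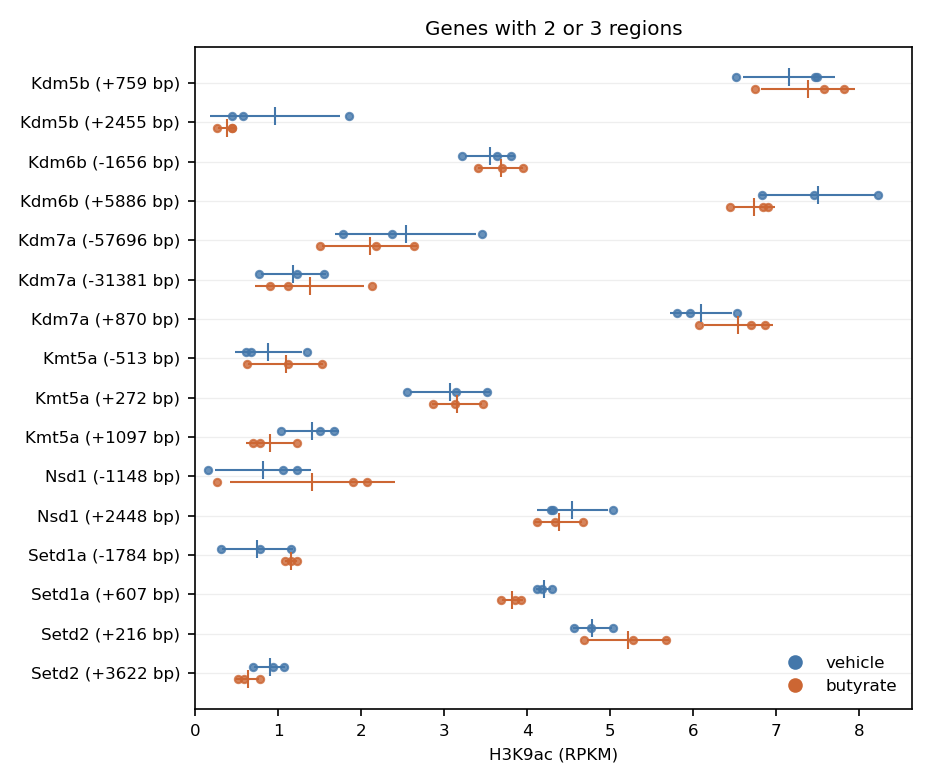
H3K9ac in RPKM per library (points), with group mean (tick) and SD (bar), at the 16 regions of the 7 genes with 2 or 3 regions, labelled with the distance in bp from the start site. The dense region exceeds the others in every library of each gene, and Kdm6b has 2 regions above 3 RPKM.

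The name rule passed over enzymes whose start lay in a region named after a neighbour. GENCODE starts placed 6 of them there, which were looked for after the values were seen. Kmt2e, a Kmt2 relative without known catalytic activity, lay in a 6754 bp region named after 5031425E22Rik with 7.95, 7.98 and 7.75 RPKM in vehicle and 8.55, 8.25 and 8.96 in butyrate, the groups being separated (0.11 ± 0.07, limma adjusted p 0.74). Ash1l lay in the region of Dap3 (5.13 ± 0.64 and 5.27 ± 0.39), Kdm5a in that of Ccdc77 (4.33 ± 0.17 and 4.06 ± 0.28) and Setd5 in that of Gt(ROSA)26Sor (4.30 ± 0.02 and 4.30 ± 0.32). Setdb2 lay in the region of Gm45935 (4.10 ± 0.20 and 4.28 ± 0.25) and Kdm4d in that of Cwc15 (3.53 ± 0.75 and 2.81 ± 0.10). The starts of Kdm4a, Kdm4b, Kdm5d and Suv39h1 lay in no region of the table.

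Partners of the enzymes were read at 1 region per gene, the one with most reads within 5 kb of a start, and 0 passed limma in any list. COMPASS subunits were measured at 12 of 13, 6 above and 6 below 0 (median -0.02), with Rbbp5 (2.09 ± 0.21 and 2.60 ± 0.25) and Dpy30 (3.63 ± 0.49 and 3.09 ± 0.24) at the smallest p in each direction. PRC2 subunits were measured at 9 of 11, 5 above and 4 below 0 (median 0.10), and 2 had an unadjusted limma p under 0.05, as had 7.27% of all tested regions. These were Phf1, a Polycomb-like accessory protein, with 4.24 ± 0.66 and 5.34 ± 0.33 (0.28 ± 0.10, limma adjusted p 0.60), and the histone chaperone Rbbp7, with 4.18 ± 0.79 and 3.03 ± 0.34 (-0.36 ± 0.12, limma adjusted p 0.57).

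Methylation enzymes with other names were measured at 9 of 25 listed names, some of the rest being older symbols of members (5 above 0, 4 below, median 0.05). Prdm2, a PR-domain methyltransferase, had 8.18 ± 0.05 and 10.5 ± 0.62 with separated groups (0.32 ± 0.07, limma adjusted p 0.49). Riox1, a Jumonji oxygenase, had 3.21 ± 0.14 and 2.45 ± 0.06 (-0.29 ± 0.10, limma adjusted p 0.60). The groups were separated at Riox1 too, and in the lists above at Rbbp5, Wdr82 and Phf1 (higher with butyrate) and Rbbp7 (lower). Of all tested regions 13.0% had separated groups. Prdm2 and Riox1 were the 2 of the 9 with an unadjusted p under 0.05, beside the 7.27% of all tested regions. Heterochromatin readers were measured at 8 of 10, 4 above and 4 below 0, with Cbx5, the HP1 alpha protein, at 1.50 ± 0.34 and 2.43 ± 0.91 (0.43 ± 0.19, limma adjusted p 0.66) and L3mbtl2 at 2.72 ± 0.74 and 2.51 ± 0.41. Arginine methyltransferases were measured at 5 of 9, with 2 above and 3 below 0. Prmt1 had 2.73 ± 0.48 and 3.90 ± 1.3 (limma adjusted p 0.68) and Prmt3 3.26 ± 0.88 and 2.64 ± 0.72. An unadjusted limma p under 0.05 was found at 1 of the 8 readers, Cbx5, and at 1 of these 5, Prmt1. Of the 12 COMPASS subunits 0 had one.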

How the data were processed

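H3K9ac was profiled in ileal epithelial cells, with 3 libraries per group. Per the labels' protocols, sonicated chromatin was precipitated with an H3K9ac antibody (Millipore), and paired-end ThruPLEX libraries were sequenced. Per the submitters' processing notes the authors' tools were edgeR, HOMER, Picard and STAR (no version given), with the build mm10. How regions were called and merged is not given in the sources used here. Per the file headers the deposited table gives each library's RPKM, group means in RPKM and in CPM as the authors made them, their log2 fold change and log2 CPM, and their p-values and FDR (an FDR under 0.1 was counted here).

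Column names gave a library's group, not its sample, so no library carries a replicate number of the labels. Dividing RPKM times length by the worth of a single read in that library left whole reads for 100% of values (within 0.01 reads), and voom used those. Regions were tested mainly by limma 3.58.1 under R 4.3.3, comparing butyrate with vehicle on a scale of log2(RPKM + 1). Variances were moderated robustly along a trend with level. The fit held the 10529 regions with a mean of at least 1 RPKM, with Benjamini-Hochberg adjustment over all of them. The added 1 makes the fold changes of thin regions appear smaller. The fits were tested on simulated data. Alternatives were a pseudocount of 0.5, no filter, scaling to the sum over regions, RLE-type factors, voom, and leaving out each library. All 6 values are given for the 4 members with the smallest p in each direction and the member with most acetylation in each role group. They are also given for the other members with separated groups (Kdm1a, Setd1a), further regions of Kdm6b, Kdm5b and Nsd1, and the region holding Kmt2e. These additions were chosen after their values were seen. Members and lists were chosen with earlier results of these data known.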

Additional observations from a re-analysis of the deposited data

How the results depend on the processing

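Over 11 alternatives, 0 member regions were called in any, and the lowest adjusted p of a member was 0.40 (voom). Over all regions limma called 0, and voom on recovered reads called 16, none of them members. The count of members with an unadjusted p under 0.05 was 2 by limma on all libraries and 2 to 5 when a library was left out (5 without S3, or 11.6% of members against 7.0% of all regions in that fit, and 4 without S4, or 9.3% against 7.86%). Separated groups were found at 5 members and at 6 to 12 with a library left out (11 without S1, 7 without S2, 6 without S3, 12 without S4, 8 without S5, 10 without S6), which fewer libraries make easier by construction. The highest of these, 27.9% of members without S4 and 25.6% without S1, stood beside 24.3% and 23.8% of all regions, and the lowest, 14.0% without S3, beside 23.2%. Without S2, S5 and S6 the shares were 16.3%, 18.6% and 23.3% of members, beside 22.7%, 23.1% and 23.8% of all regions. The median log2 fold change of members, 0.04, ran from 0.01 without S5 to 0.07 without S4. Of 14 regions tracked, 10 kept their direction throughout, and 4 near 0 did not: with single libraries left out Setd1b ran from -0.0912 to 0.0306, Kdm5b from -0.0182 to 0.0953, Kmt5b from -0.0729 to 0.119 and Nsd3 from -0.0568 to 0.0242, and Nsd3 had 0.0016 by voom, and the cause was not tested. Without S5 the value of Nsd2 moved from -0.20 to -0.07. Over single libraries left out Kdm6b ran from -0.193 (p 0.042, without S3) to -0.0741 (without S2) and Kmt5c from 0.134 (without S2) to 0.301 (p 0.014, without S4). Kdm6a ran from -0.142 to -0.0668, Ehmt2 from 0.0016 to 0.0806 and Setd3 from -0.0933 to -0.0334. No paired analysis was possible because the columns carry no replicate numbers of the labels. On the scale of log2(RPKM + 1), intervals reached past 1.5-fold at Kdm8 on 58.2 mean reads. They did so too upstream of Nsd1, within Kmt5a and at Setd6, on 11.2 to 15.3. At Kdm7a at -31381 bp, on 13.5 mean reads, the upper limit was 0.581, just inside 1.5-fold. There the added 1 makes the fold change appear smaller, and voom gave 0.23 ± 0.43 (SE).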
